A study of Arabidopsis thaliana with 2 samples.

Results

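The iron uptake and iron homeostasis genes of Arabidopsis thaliana described here are 10 genes taken by name, of 23147 genes listed in at least 1 library. They are the transporter gene IRT1, the reductase gene FRO2, the regulators FIT, bHLH38, bHLH39, bHLH100, bHLH101 and BTS, the nicotianamine synthase gene NAS4 and the ferritin gene FER1. All 10 were listed in both libraries. Messenger RNA had been sequenced from rosettes of untreated Col-0 plants 28 days old, in 1 library of the PBL19 C3A line and 1 of wild type plants. The PBL19 C3A line is a pbl19 null mutant that carries PBL19 with cysteine 3 changed to alanine, tagged with GFP and HA and expressed from the PBL19 promoter. The sources used here do not give the number of transgenic lines or of plants behind a library. With 1 library per genotype, no difference has a replicate check and none was tested. Loss of native PBL19, the cysteine change, the tags and the amount of PBL19 all differ between the libraries and cannot be told apart, and a line with an unchanged PBL19 transgene was not analysed here.

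Iron in soil is mostly ferric and poorly soluble. Arabidopsis roots acidify the soil and release coumarins, reduce ferric iron at the epidermis with FRO2 and import the ferrous ion with IRT1. FIT switches these genes on as a dimer with a subgroup Ib bHLH factor, of which bHLH38, bHLH39, bHLH100 and bHLH101 are the members, and iron-deficient plants induce all of them. BTS is a ubiquitin ligase that binds iron and restrains the response by removing the subgroup IVc bHLH factors that activate the Ib genes. Inside the plant, nicotianamine chelates iron for transport, and ferritins such as FER1 store iron in plastids when it is plentiful.

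The 250 bases before the annotated start of each of the 10 genes were read from the reference genome (RefSeq, TAIR10.1) and searched on both strands for the G-box CACGTG, the best known binding motif of plant bHLH factors. It was found in 3 of the 10 windows, those of BTS, bHLH38 and bHLH100, and in 7.11% of the windows of 22968 protein-coding genes listed in these libraries. The wider E-box CANNTG, which includes the G-box, was found in 6 of the 10 windows and in 56.3% of all windows. BTS held 3 copies of the G-box, which began 146, 124 and 70 bases before its start. The copy of bHLH38 began 97 bases and that of bHLH100 91 bases before the start. Printed below are the 3 windows with a G-box, that of bHLH39 because it is the tandem neighbour of bHLH38, and those of IRT1 and FRO2 because they are the uptake genes proper. Each runs 5′ to 3′ toward the start, with the G-box in capitals. A match describes the letters of the window and does not show that a factor binds there.
BTS (chr3:6273716-6273965, plus strand): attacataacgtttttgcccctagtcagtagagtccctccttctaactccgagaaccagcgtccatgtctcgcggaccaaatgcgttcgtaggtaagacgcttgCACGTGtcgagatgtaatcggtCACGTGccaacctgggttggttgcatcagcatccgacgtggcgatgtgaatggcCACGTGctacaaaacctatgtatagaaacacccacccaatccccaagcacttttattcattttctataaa
bHLH38 (chr3:21085246-21085495, minus strand): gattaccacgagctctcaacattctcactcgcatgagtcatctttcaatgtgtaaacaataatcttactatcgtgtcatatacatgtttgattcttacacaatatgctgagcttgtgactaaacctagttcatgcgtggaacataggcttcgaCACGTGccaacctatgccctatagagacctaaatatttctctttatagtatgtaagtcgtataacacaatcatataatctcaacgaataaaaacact
bHLH100 (chr2:17199455-17199704, minus strand): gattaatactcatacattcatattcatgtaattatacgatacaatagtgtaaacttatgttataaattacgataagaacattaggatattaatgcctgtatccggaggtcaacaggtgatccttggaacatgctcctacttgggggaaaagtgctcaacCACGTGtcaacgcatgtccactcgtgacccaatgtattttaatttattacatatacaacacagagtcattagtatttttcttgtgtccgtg
bHLH39 (chr3:21087711-21087960, minus strand): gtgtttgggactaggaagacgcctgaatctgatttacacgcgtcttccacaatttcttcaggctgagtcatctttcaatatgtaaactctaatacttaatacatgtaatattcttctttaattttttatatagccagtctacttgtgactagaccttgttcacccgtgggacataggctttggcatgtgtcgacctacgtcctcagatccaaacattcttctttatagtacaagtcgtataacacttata
IRT1 (chr4:10707094-10707343, plus strand): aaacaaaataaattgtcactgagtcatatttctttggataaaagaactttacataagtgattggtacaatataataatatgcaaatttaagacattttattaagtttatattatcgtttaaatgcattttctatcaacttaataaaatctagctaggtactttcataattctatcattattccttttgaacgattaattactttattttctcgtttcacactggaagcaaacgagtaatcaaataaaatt
FRO2 (chr1:208745-208994, plus strand): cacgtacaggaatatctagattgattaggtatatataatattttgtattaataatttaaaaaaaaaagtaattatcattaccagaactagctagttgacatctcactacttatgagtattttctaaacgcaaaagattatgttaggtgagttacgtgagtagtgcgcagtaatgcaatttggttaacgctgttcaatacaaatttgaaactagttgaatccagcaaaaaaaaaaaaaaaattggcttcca

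The tables held 12001808 estimated counts for the PBL19 C3A library and 11937705 for the wild type library. Levels are given as FPKM, counts divided by gene length and library size, as the authors deposited them. PBL19 itself was at 466 FPKM in the PBL19 C3A library and 6.68 FPKM in the wild type library. In the PBL19 C3A library, reads of the transgene and any of the native gene are counted together. Differences are log2 ratios of FPKM + 1, PBL19 C3A over wild type, and the 19527 genes that reached 1 FPKM in at least 1 library were counted. This scale understates the difference of genes with low FPKM. The median of these 19527 genes was 0.14, and each ratio is to be read against that shift. Folds of single genes are plain ratios of FPKM with a 95% interval from the counts (exact, Clopper-Pearson). They hold counting error alone: the reads carry no molecular identifiers, and differences between plants are not in them.

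The uptake pair was lower in the PBL19 C3A library. IRT1 (AT4G19690, chromosome 4, 10707344 to 10709015, plus strand, 3 exons), the main importer of ferrous iron, was at 6.42 FPKM from 97 counts in the PBL19 C3A library and at 18.8 FPKM from 289 counts in wild type plants. It was 2.93-fold lower, with a counting interval of 2.32 to 3.73. FRO2 (AT1G01580, chromosome 1, 208995 to 213082, plus strand, 8 exons), the ferric chelate reductase of the root surface, was at 1.44 FPKM from 46 counts in the PBL19 C3A library and at 4.83 FPKM from 154 counts in wild type plants. It was 3.35-fold lower, with a counting interval of 2.40 to 4.77. The counting intervals of both ratios lay wholly past 2-fold and overlapped each other. Together the pair had 143 counts in the PBL19 C3A library and 443 in the wild type library, a ratio of 0.32 per counted read (0.26 to 0.39). A log2 ratio as low as that of IRT1, -1.42, was reached by 0.999% of the 19527 genes, and one as low as that of FRO2, -1.26, by 1.45%. In whole rosettes, fewer cells of a type and less RNA per cell cannot be told apart.

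FIT was at a higher value in the PBL19 C3A library. FIT (AT2G28160, RefSeq symbol FRU, chromosome 2, 12004658 to 12006276, plus strand, 4 exons), the bHLH factor on which the induction of IRT1 and FRO2 depends, was at 7.39 FPKM from 109 counts in the PBL19 C3A library and at 4.74 FPKM from 70 counts in wild type plants. Its ratio was 1.56, with a counting interval of 1.14 to 2.14, and its log2 ratio of 0.55 was short of 2-fold. Of the 19527 genes, 79.6% were at or below that log2 ratio. FIT and IRT1 had overlapping counting intervals in the PBL19 C3A library, while in the wild type library FIT stood well below IRT1.

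The 4 subgroup Ib factors were the lowest of the 10 genes in both libraries and were all at lower values in the PBL19 C3A library. bHLH39 (AT3G56980, chromosome 3, 21086390 to 21087710, minus strand, 2 exons) was at 0.41 FPKM from 6 counts in the PBL19 C3A library and at 2.15 FPKM from 31 counts in wild type plants, 5.24-fold lower (counting interval 2.16 to 15.4). bHLH101 (AT5G04150, chromosome 5, 1138410 to 1139633, minus strand, 3 exons) was at 0.59 FPKM from 6 counts in the PBL19 C3A library and at 2.40 FPKM from 25 counts in wild type plants, 4.07-fold lower (1.63 to 12.1). Both passed the FPKM filter through the wild type library alone. The other two stayed under 1 FPKM in both libraries and were not among the 19527 genes.

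bHLH38 (AT3G56970, chromosome 3, 21084035 to 21085245, minus strand, 2 exons) was at 0.16 FPKM from 2 counts in the PBL19 C3A library and at 0.39 FPKM from 5 counts in wild type plants, a ratio of 0.41 (counting interval 0.039 to 2.51). bHLH100 (AT2G41240, chromosome 2, 17198037 to 17199454, minus strand, 2 exons) was at 0.36 FPKM from 5 counts in the PBL19 C3A library and at 0.88 FPKM from 9 counts in wild type plants, a ratio of 0.41 (0.11 to 1.36). Neither difference was detectable at this depth. The deposited length of bHLH100 was 1157 bases in the PBL19 C3A library and 867 bases in the wild type library, and this length enters its FPKM. Summed over the 4 factors there were 19 counts in the PBL19 C3A library and 70 in the wild type library, a ratio of 0.27 per counted read (0.15 to 0.45).

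The identity of these few reads has limits. bHLH38 overlaps 386 bases of PIP5K4, a lipid kinase gene on the opposite strand, which was at 2.08 FPKM in the PBL19 C3A library and 1.49 FPKM in the wild type library. bHLH101 overlaps 79 bases of GLU1, the ferredoxin-dependent glutamate synthase gene of leaves, also on the opposite strand. GLU1 was at 87.1 FPKM in the PBL19 C3A library and 156 FPKM in the wild type library. Whether counting used strand is not given in the sources used here, so reads in these overlaps cannot be told apart, and the share of GLU1 reads in the value of bHLH101 was not tested. Without bHLH38 and bHLH101, the other pair had 11 counts in the PBL19 C3A library and 40 in the wild type library, a ratio of 0.27 per counted read (0.13 to 0.54). This ratio rests mainly on bHLH39, with 6 counts in the PBL19 C3A library and 31 in the wild type library. The difference of bHLH100 alone was within counting error. Transcripts of bHLH38 and bHLH39 share 8 stretches of 31 bases and those of bHLH39 and bHLH100 share 2, while the deposited counts of all 4 factors were whole numbers.

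BTS (AT3G18290, chromosome 3, 6273966 to 6280562, plus strand, 14 exons), the ubiquitin ligase that limits the response, was at 17.3 FPKM from 951 counts in the PBL19 C3A library and at 23.05 FPKM from 1260 counts in wild type plants. Its ratio was 0.75, with a counting interval of 0.69 to 0.82, and its log2 ratio was -0.39. BTS is the best counted of the regulators, and its difference exceeded counting error but stayed well short of 2-fold. BTS, bHLH38 and bHLH100, the 3 genes with a G-box in their windows, were each at lower FPKM in the PBL19 C3A library. For bHLH38 and bHLH100 that difference was within counting error. Among the genes whose windows hold none, IRT1, FRO2, bHLH39 and bHLH101 were lower, while FIT, NAS4 and FER1 were higher.

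The chelation and storage genes were at higher values in the PBL19 C3A library. FER1 (AT5G01600, chromosome 5, 227953 to 230051, minus strand, 8 exons), an iron-induced ferritin of leaves, was at 109 FPKM from 1865 counts in the PBL19 C3A library and at 77.4 FPKM from 1314 counts in wild type plants. Its ratio was 1.41, with a counting interval of 1.31 to 1.52. NAS4 (AT1G56430, chromosome 1, 21136835 to 21138277, plus strand, 1 exon), which makes the iron chelator nicotianamine, was at 5.77 FPKM from 100 counts in the PBL19 C3A library and at 3.89 FPKM from 67 counts in wild type plants. Its ratio was 1.48, with a counting interval of 1.08 to 2.05. On the log2 scale FER1 stood at 0.49 and NAS4 at 0.47, both above the median of all genes and under 2-fold. The counting interval of NAS4 on that scale, 0.09 to 0.85, included that median of 0.14. Of the 19527 genes, 76.7% were at or below the log2 ratio of FER1 and 75.3% at or below that of NAS4. FER1 overlaps AT5G01595, a long noncoding RNA gene on the opposite strand that was listed in neither library.

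**Figure D1:**
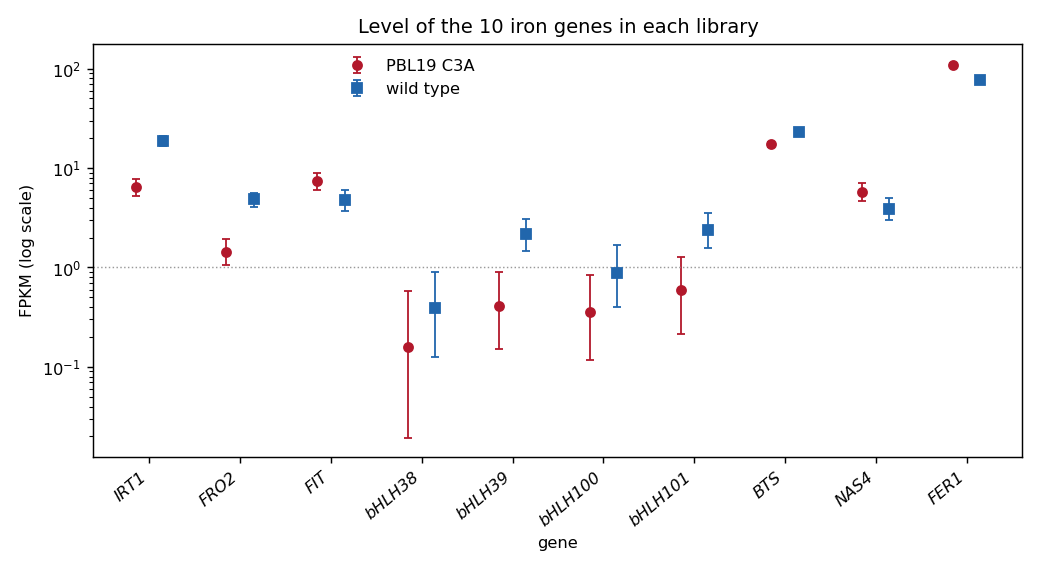
FPKM (log scale) of the 10 iron genes in the PBL19 C3A library (red circles) and the wild type library (blue squares), with exact Poisson 95% intervals of the counts, which cover counting error only. IRT1, FRO2, bHLH39, bHLH101 and BTS sit lower in the PBL19 C3A library with separate intervals, and FIT and FER1 sit higher with separate intervals. The 4 subgroup Ib bHLH factors are the lowest genes. Of these, bHLH39 and bHLH101 lie above the dotted line at 1 FPKM in wild type. FER1 is the highest gene in both libraries.

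The order of the levels differed between the libraries below the top pair. In the PBL19 C3A library FER1 was followed by BTS, FIT, IRT1, NAS4, FRO2, bHLH101, bHLH39, bHLH100 and bHLH38. The counting intervals of FIT (6.07 to 8.91 FPKM), IRT1 (5.21 to 7.83 FPKM) and NAS4 (4.69 to 7.02 FPKM) overlapped, so these neighbours did not differ beyond counting error in that library. In the wild type library FER1 and BTS were followed by IRT1, FRO2, FIT, NAS4, bHLH101, bHLH39, bHLH100 and bHLH38. There IRT1 (16.7 to 21.1 FPKM) lay apart from FRO2 (4.10 to 5.66 FPKM), while FRO2, FIT (3.70 to 5.99 FPKM) and NAS4 (3.01 to 4.94 FPKM) overlapped.

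Of the 10 genes, 4 were at least 2-fold lower in the PBL19 C3A library on the FPKM + 1 scale (IRT1, FRO2, bHLH39 and bHLH101), and 0 were at least 2-fold higher. Over all 19527 genes, 2.85% were at least 2-fold lower and 7.89% at least 2-fold higher. Of the 4, bHLH39 and bHLH101 were counted only because they passed 1 FPKM in wild type, where they are higher, so their place in the count is partly set by the filter. The counting interval of the plain ratio lay wholly past 2-fold lower for 3 of the 10, IRT1, FRO2 and bHLH39, against 1.87% of all genes. It lay wholly past 2-fold higher for 0 of the 10, against 5.44% of all genes. The filter on FPKM was passed by 8 of the 10. The median log2 ratio of all 10 was -0.43, beside 0.11 for all 23147 listed genes, and that of the 8 was -0.75, beside 0.14 for the 19527. With a filter of 5 FPKM the median of the iron genes turned to 0.47, over 5 genes of which 1, IRT1, was at least 2-fold lower. These genes were picked by name with results of these libraries known, and genes are not replicates, so the counts describe these libraries only.

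**Figure D2:**
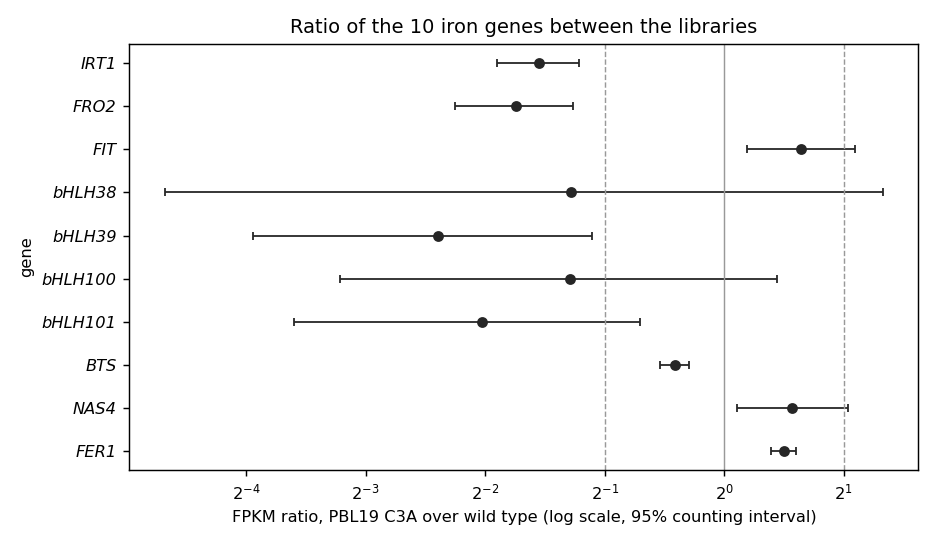
Ratio of FPKM, PBL19 C3A over wild type (log scale), of the 10 iron genes with 95% counting intervals; the solid line marks a ratio of 1 and the dashed lines 2-fold in either direction. IRT1, FRO2 and bHLH39 lie wholly to the left of the lower dashed line, FIT, NAS4 and FER1 lie to the right of 1, and bHLH38 and bHLH100 span 1.

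A list of 69 other genes of iron uptake and homeostasis, from regulators to iron-sulphur assembly, was then read in the same way. Of the 59 that passed the filter, 3 were at least 2-fold lower and 3 at least 2-fold higher in the PBL19 C3A library. The shares of all genes were 2.85% and 7.89%. Of the 3 lower, IRT2 and CYP82C4 passed the filter through wild type alone, so that count is partly set by the filter. Of the 59, 30 lay below and 29 above 0, where 38.1% of all genes lay below and 61.7% above. Against the median of all genes, 39 of the 59 lay below, and their own median log2 ratio was -0.01. TMM scaling, and likewise setting the median ratio of all genes to 1, gave 4 past 2-fold on the lower side and 2 on the higher. The same shares of all genes are the background of the counts in each sublist that follows. For named genes, the 4 with the largest log2 ratios in either direction were taken from each of its 4 sublists.

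In the uptake and mobilisation sublist, 2 of 14 genes were at least 2-fold lower and 1 at least 2-fold higher. Of the 14, 11 lay below 0 and 13 below the median of all genes. The 2 lower genes, IRT2 and CYP82C4, passed the filter through wild type alone, as did FRO5 among the 11. These counts are thus partly set by the filter. IRT2, a close relative that lies 2505 bases from IRT1 on the same strand and acts in root epidermis, was at 0.51 FPKM from 8 counts in the PBL19 C3A library and at 2.18 FPKM from 34 counts in wild type plants, 4.27-fold lower (counting interval 1.94 to 10.7). CYP82C4, a cytochrome P450 that oxidises coumarins under iron deficiency, was at 0.38 FPKM in the PBL19 C3A library and 2.20 FPKM in the wild type library, 5.79-fold lower (2.82 to 13.4). Its counts were fractional, 8.61 in the PBL19 C3A library and 49.96 in wild type plants, as arises when reads are divided between genes. FRO4, a reductase of the FRO family known for copper uptake, was at 5.39 FPKM in the PBL19 C3A library and 11.2 FPKM in the wild type library, also from fractional counts. Its log2 ratio was -0.93 as deposited, under 2-fold, and -1.07 once the median ratio of all genes was set to 1.

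F6'H1, the enzyme that commits phenylpropanoids to the coumarin scopoletin, went the other way, at 37.7 FPKM from 667 counts in the PBL19 C3A library and 14.2 FPKM from 249 counts in wild type plants. Its ratio was 2.66, with a counting interval of 2.30 to 3.09, and it overlaps 67 bases of PUT4 on the opposite strand. AHA2, the main proton pump that acidifies the soil around roots, was at 154.9 FPKM in the PBL19 C3A library and 155.6 FPKM in the wild type library, a ratio of 0.996 (0.96 to 1.03), and was chosen after its values were seen. FRO1, the tandem neighbour of FRO2, was at 0.06 FPKM from 2 counts in the PBL19 C3A library and not listed in the wild type library.

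Among the other regulators, 0 of 13 were at least 2-fold lower and 0 at least 2-fold higher, with 7 below and 6 above 0, and 8 below the median of all genes. PYE, a bHLH repressor of iron transport genes, was at 6.81 FPKM from 103 counts in the PBL19 C3A library and at 11.5 FPKM from 174 counts in wild type plants, a ratio of 0.59 (0.46 to 0.76). AT1G74770, a zinc ion binding protein in RefSeq, was at 1.26 FPKM in the PBL19 C3A library and 2.73 FPKM in the wild type library. Its ratio was 0.46 (0.34 to 0.62). Its log2 ratio was -0.72 as reported and -1.06, past 2-fold, with a pseudocount of 0.1. The gene overlaps 471 bases of AT1G74750 on the opposite strand. bHLH104, a subgroup IVc activator that BTS is known to bind, was at 31.8 FPKM in the PBL19 C3A library and 21.9 FPKM in the wild type library, a ratio of 1.46 (1.28 to 1.66). The other IVc factors were named after their values were seen. ILR3 had a ratio of 1.27 (1.17 to 1.38), bHLH115 one of 1.24 (1.12 to 1.37) and bHLH34 one of 1.17 (0.77 to 1.78), within counting error of 1. AT2G30766, an uncharacterised protein in RefSeq, was at 12.96 FPKM in the PBL19 C3A library and 17.5 FPKM in the wild type library, but overlaps AT2G30760 and CYP71A13 on the opposite strand.

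In the chelation and transport sublist, 1 of 21 genes was at least 2-fold lower and 1 at least 2-fold higher, with 9 below and 12 above 0, and 11 below the median of all genes. FPN1 (RefSeq symbol IREG1), a metal exporter of vascular cells, was at 3.20 FPKM from 87 counts in the PBL19 C3A library and at 9.16 FPKM from 238 counts in wild type plants, 2.86-fold lower (2.23 to 3.70). YSL3, which carries metal-nicotianamine complexes out of leaf veins and senescing leaves, was at 43.5 FPKM from 1266 counts in the PBL19 C3A library and at 17.6 FPKM from 521 counts in wild type plants, a ratio of 2.47 (2.23 to 2.74). Its closest partner in that role, YSL1, was at 6.78 FPKM in the PBL19 C3A library and 2.99 FPKM in the wild type library, a ratio of 2.27 (1.78 to 2.90), which is a log2 ratio of 0.96 on the FPKM + 1 scale. NRAMP1, a manganese and iron transporter of the plasma membrane, was at 26.4 FPKM in the PBL19 C3A library and 13.7 FPKM in the wild type library, a ratio of 1.93 (1.69 to 2.20), and overlaps CCR2 on the opposite strand. The 4 nicotianamine synthases did not move together. NAS2 was at 8.60 FPKM in the PBL19 C3A library and 16.1 FPKM in the wild type library. NAS1 was at 28.6 FPKM in the PBL19 C3A library and 38.4 FPKM in the wild type library, and these 2 genes share 19 stretches of 31 bases. NAS3 stood with NAS4 on the higher side, at 3.50 FPKM in the PBL19 C3A library and 1.97 FPKM in the wild type library. NAS1, NAS2 and NAS3 were named after their values were seen.

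Of 11 genes for storage and iron-sulphur assembly, 1 was at least 2-fold higher, 0 at least 2-fold lower and 8 lay above 0, while 7 lay below the median of all genes. These counts are near the shares of all genes. FER4, a ferritin of plastids and mitochondria, was at 31.6 FPKM from 473 counts in the PBL19 C3A library and at 14.5 FPKM from 216 counts in wild type plants, a ratio of 2.18 (1.85 to 2.57). Its log2 ratio was 1.07 as deposited and 0.91, under 2-fold, once the median ratio of all genes was set to 1. FER4 overlaps 118 bases of AT2G40290 on the same strand. FER3, a leaf ferritin named after its values were seen, was at 30.01 FPKM in the PBL19 C3A library and 29.4 FPKM in the wild type library, a ratio of 1.02 (0.89 to 1.17). FER2, the ferritin of seeds, was at 0.80 FPKM from 11 counts in the PBL19 C3A library and 1.25 FPKM from about 17.1 counts in wild type plants. FER1 and FER4 thus stood higher in the PBL19 C3A library and FER3 near a ratio of 1. NEET, an iron-sulphur protein, was at 12.6 FPKM in the PBL19 C3A library and 19.6 FPKM in the wild type library, a ratio of 0.64 (0.50 to 0.82). The ABC protein ABCI8 was at 74.2 FPKM in the PBL19 C3A library and 95.7 FPKM in the wild type library, a ratio of 0.77 (0.73 to 0.82).

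**Figure D3:**
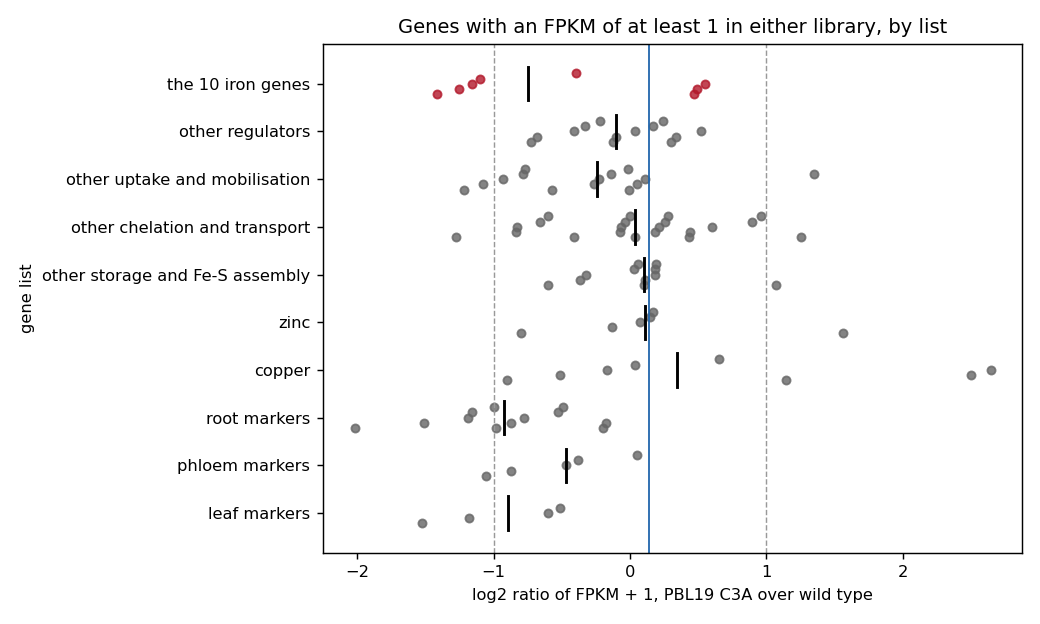
Log2 ratio of FPKM + 1, PBL19 C3A over wild type, of each gene that reached 1 FPKM in at least 1 library, by list, with the 10 iron genes in red. Black bars are list medians, the blue line is the median of all 19527 genes (0.14) and dashed lines mark 2-fold; the iron genes fall into a lower set of 4, BTS, and a higher set of 3, while all 12 root markers shown lie below 0.

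The uptake genes act in roots, and root transcripts were present in both rosette libraries, mostly at lower values in the PBL19 C3A library. Of 13 root markers, 0 were at 0 in either library. Of the 12 that passed the filter, all 12 lay below 0, 4 were at least 2-fold lower and the median log2 ratio was -0.93. Over all 19527 genes, 38.1% lay below 0, 2.85% were at least 2-fold lower and the median was 0.14. The filter has a part in the count of root markers, since PLT1, PLT2 and NRT2.1 passed it through wild type alone. It also left out WOX5 of the root stem cell niche, which was at 0.88 FPKM in the PBL19 C3A library and 0.32 FPKM in the wild type library. Over all 13 markers the median log2 ratio was -0.87. PRP3, a wall protein of root hairs, was at 6.03 FPKM in the PBL19 C3A library and 27.5 FPKM in the wild type library, a ratio of 0.22 (0.17 to 0.28). LRX1, another root hair wall protein, was at 1.50 FPKM in the PBL19 C3A library and 6.12 FPKM in the wild type library. PIN2, the auxin carrier of the root tip, was at 3.87 FPKM in the PBL19 C3A library and 10.09 FPKM in the wild type library. The range over the 13 markers was 0.77 to 1318 FPKM in the PBL19 C3A library and 0.32 to 1492 FPKM in the wild type library, the top value of each being PYK10, a glucosidase of root and hypocotyl. Their summed level was 1361 FPKM in the PBL19 C3A library and 1591 FPKM in the wild type library, a ratio of 0.86. PYK10 held most of that sum, and its own ratio was 0.88 (0.87 to 0.90). Without PYK10 the sum was 43.4 FPKM in the PBL19 C3A library and 98.8 FPKM in the wild type library, a ratio of 0.44. IRT1 and FRO2 together were at 7.86 FPKM in the PBL19 C3A library and 23.7 FPKM in the wild type library, a ratio of 0.33. The part of root tissue in the values of the uptake genes was not tested.

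**Figure D4:**
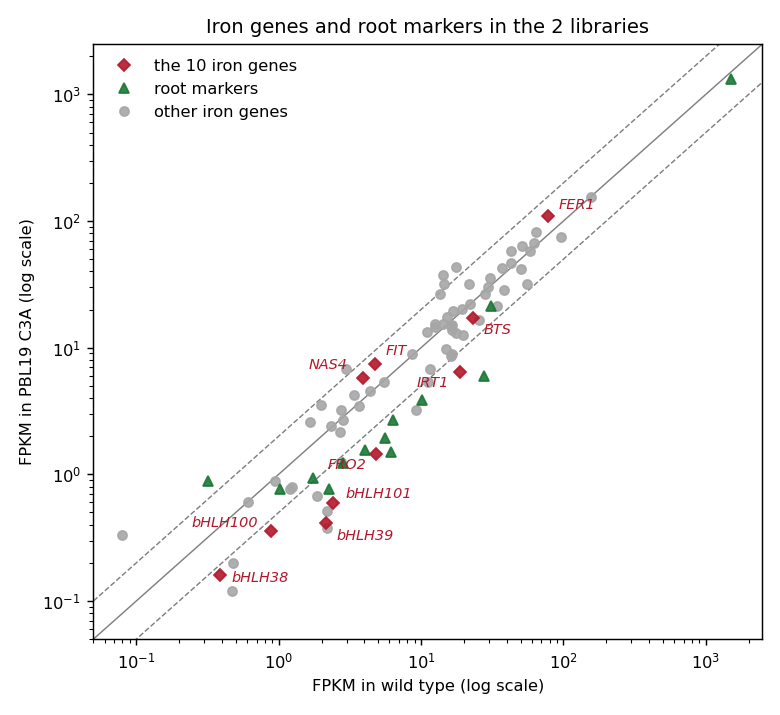
FPKM in the PBL19 C3A library (vertical, log scale) against FPKM in the wild type library (horizontal, log scale) for the 10 iron genes (red diamonds), 13 root markers (green triangles) and the other iron genes listed in both libraries (grey circles); the solid line marks equal levels and the dashed lines 2-fold. IRT1, FRO2 and most root markers lie along or under the lower dashed line, while FIT, NAS4 and FER1 lie above the solid line.

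Markers of the other tissues were measured beside them. The same shares of all genes, 38.1% below 0 and 2.85% at least 2-fold lower, are the background of their counts. Of 6 markers of phloem companion cells, where several iron transporters act, 5 passed the filter and 4 of them lay below 0. Their median log2 ratio was -0.47, and 1, AHA3, was past 2-fold. Their summed level was 163 FPKM in the PBL19 C3A library and 271 FPKM in the wild type library, with 0 of the 6 at 0 in either. The proton pump AHA3 was at 28.8 FPKM in the PBL19 C3A library and 60.9 FPKM in the wild type library. The sucrose transporter SUC2 was at 57.6 FPKM in the PBL19 C3A library and 106 FPKM in the wild type library. The lectin gene PP2-A1 was at 63.02 FPKM in the PBL19 C3A library and 87.7 FPKM in the wild type library. For the rosette label, all 4 leaf markers were abundant, at 755 to 8375 FPKM in the PBL19 C3A library and 1827 to 12729 FPKM in the wild type library. All 4 lay below 0, and CA1 and LHCB1.2 were at least 2-fold lower. The median log2 ratio of the leaf markers was -0.89, beside -0.93 for the root markers. Their summed level was 12950 FPKM in the PBL19 C3A library and 22497 FPKM in the wild type library, a ratio of 0.58. The part of tissue make-up in the iron gene values was not tested.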

How the data were processed

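Per the file headers, the deposited columns are gene length, expected (estimated) count and FPKM, for genes above 0. Trimmomatic 0.36, HISAT and TAIR10 are named in the submitters' processing notes. The quantification tool and the use of strand are not given in the sources used here. FPKM values, made by the authors, were used as deposited, and unlisted genes were set to 0. Estimated counts deposited by the authors were rounded for intervals and TMM factors (edgeR 4.0.16, R 4.3.3), which served an alternative only. With 1 library per group, no test was run. Calculations used python 3.11.15 with scipy 1.17.1, numpy 2.4.6 and pandas 2.3.3, figures used matplotlib 3.10.9, and the calculations were tested on simulated data. The genes and lists were chosen with earlier results of these data known. Names, positions and windows follow RefSeq TAIR10.1, where 22970 of 23147 identifiers were found. Roles of genes are background knowledge, apart from those said to be in RefSeq. All 12699 single-transcript genes had the reference length (tolerance 0.01 bases). Named genes were the 10 iron genes, PBL19, IRT2, FRO1, the 4 largest log2 ratios in either direction per list of other iron genes and the 3 largest per marker or metal list, among genes with an FPKM of at least 1. Alternatives were a pseudocount of 0.1, no filter, an FPKM of at least 5, rescaling to a median ratio of 1, TMM-scaled counts and 1 common gene length.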

Additional observations from a re-analysis of the deposited data

How the results depend on the processing

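No paired analysis was possible because each genotype has 1 library, and leaving out a library leaves no comparison. Over 47 values of the 10 iron genes under 6 alternatives, all 47 kept their sign. A change of filter or pseudocount cannot change a sign, so only the rescaling, TMM and common gene length settings could have done so. IRT1, FRO2, bHLH39 and bHLH101 stayed at least 2-fold lower wherever they passed the filter. Over genes with an FPKM of at least 5, only IRT1 was left among the lower genes (1 of 5, since FRO2, bHLH39 and bHLH101 miss that filter), and the median of the iron genes was 0.47, against -0.75 as reported. Under that filter 1 other iron gene was lower and their median was 0.0151, against -0.01 as reported. With a pseudocount of 0.1, 6 other iron genes were lower, among them AT1G74770 at -1.06 and FRO4 at -1.04. YSL1 at 1.15 was then past 2-fold on the higher side, and the root marker median was -1.27. With the median ratio of all genes set to 1, SUC2 at -1.03 was past 2-fold, FER4 at 0.91 and CCS at 0.99 were under 2-fold, and with TMM-scaled counts they were at 0.92 and 0.998. Depth limits the 4 subgroup Ib bHLH genes, at 2 to 31 counts each.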

Other observations

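Genes that respond to other metals were read from lists of the same kind. Of 8 copper genes, 3 were at least 2-fold higher in the PBL19 C3A library and 0 at least 2-fold lower, against 7.89% and 2.85% of all genes. Of the 8, 5 lay above and 3 below 0, and the median log2 ratio was 0.35. The copper-zinc superoxide dismutase of the cytosol, CSD1, was at 113 FPKM from 1162 counts in the PBL19 C3A library and at 17.2 FPKM from 176 counts in wild type plants, a ratio of 6.57 (counting interval 5.60 to 7.74). The plastid form CSD2 was at 76.6 FPKM from 960 counts in the PBL19 C3A library and at 12.7 FPKM from 158 counts in wild type plants, a ratio of 6.04 (5.10 to 7.19). Their copper chaperone CCS was at 24.04 FPKM in the PBL19 C3A library and 10.3 FPKM in the wild type library, a ratio of 2.32 (1.92 to 2.83). These genes are known to be repressed, not induced, when copper is scarce. The iron superoxide dismutase FSD1, chosen after its values were seen, was at 627 FPKM in the PBL19 C3A library and 612 FPKM in the wild type library, a ratio of 1.02 (0.99 to 1.06). The 3 genes below 0 were also named after their values were seen. AT1G71200 was at 1.04 FPKM from 19 counts in the PBL19 C3A library and 2.82 FPKM from 50 counts in wild type plants, a ratio of 0.37 (0.21 to 0.64) and a log2 ratio of -0.91 on the FPKM + 1 scale. The copper transporter gene COPT2 had a ratio of 0.69 (0.55 to 0.87), and SPL7, the regulator of the copper response, one of 0.88 (0.77 to 1.02). COPT1, of the same list and also named after its values were seen, went the other way from COPT2. It was at 49.2 FPKM from 738 counts in the PBL19 C3A library and at 30.8 FPKM from 460 counts in wild type plants. Its log2 ratio was 0.66 on the FPKM + 1 scale, under 2-fold. CSD1 overlaps 211 bases of a gene on the opposite strand.

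Of 8 zinc genes, 6 passed the filter, 1 was at least 2-fold higher and 0 at least 2-fold lower. The shares of all genes were 7.89% and 2.85%, and 6 genes are too few to tell these counts from them. Of the 6, 4 lay above and 2 below 0, and the median log2 ratio was 0.11. The zinc transporter family gene ZIP5 was at 13.4 FPKM from 258 counts in the PBL19 C3A library and at 3.87 FPKM from 72 counts in wild type plants, a ratio of 3.46 (2.65 to 4.55). HMA2, a zinc exporter, was at 3.84 FPKM in the PBL19 C3A library and 7.44 FPKM in the wild type library. ZIP1, a zinc importer, was at 6.01 FPKM in the PBL19 C3A library and 5.22 FPKM in the wild type library.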
